A study of Mus musculus with 2 samples.

Results

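The miR-15/16 seed family, taken here with miR-195a, miR-497a and miR-322, is a group of mature miRNAs with the same seed, the stretch at the 5′ end that pairs with target mRNAs. The 6 members described here were taken from 610 features by their miRBase accessions in the deposited table. They are miR-15a-5p (MIMAT0000526), miR-15b-5p (MIMAT0000124), miR-16-5p (MIMAT0000527), miR-195a-5p (MIMAT0000225), miR-497a-5p (MIMAT0003453) and miR-322-5p (MIMAT0000548). The accessions were chosen by shared seed, but with the differences between the arrays already known, so the values below are a description and none is a test. All 6 members had a value on both arrays, as had 258 features in all.

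The study set liver RNA of mice with a liver-specific deletion of Hnf4a (Hnf4aΔH) against liver RNA of floxed mice (Hnf4af/f), to find miRNAs that depend on HNF4a, a nuclear receptor and a main regulator of hepatocyte genes. Both groups were 45-day-old males on a mixed 129SV + C57BL/6 background. Each genotype is represented by 1 miRNA array, so no value has a replicate error, no difference could be tested, and each difference holds genotype, animals and hybridization together. The sources used here give neither the number of animals behind an array nor the Cre driver. The total intensity was 28342 on the Hnf4aΔH array and 28849 on the Hnf4af/f array. The label "liver" and the loss of Hnf4a could not be checked, because the files pair no accession with a hepatocyte miRNA and hold no mRNA.

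A miRNA guides an Argonaute protein to mRNAs that carry a match to its seed, which lowers their translation and stability. The miR-15/16 family is best known as a brake on the cell cycle and on survival, through targets that include D-type and E-type cyclins and the anti-apoptotic protein BCL2. In humans the miR-15a/16-1 locus is lost in many chronic lymphocytic leukaemias. In mice miR-195 restrains the division of heart muscle cells after birth, and miR-195 and miR-497 hold skeletal muscle stem cells at rest. miR-322, whose human counterpart is called miR-424, slows the cell cycle as myoblasts differentiate.

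The 6 mature sequences are shown because they define the family and because the positions outside the seed are all that could let probes tell the members apart. They are RefSeq's sequences on GRCm38.p6, written 5′ to 3′, with the seed (bases 2 to 8) in capitals.
miR-15a-5p: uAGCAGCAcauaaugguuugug
miR-15b-5p: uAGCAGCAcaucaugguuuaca
miR-16-5p: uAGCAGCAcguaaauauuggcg
miR-195a-5p: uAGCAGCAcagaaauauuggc
miR-497a-5p: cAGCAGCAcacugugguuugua
miR-322-5p: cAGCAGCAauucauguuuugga
All 6 carry the seed AGCAGCA, whose complementary site in a target mRNA reads UGCUGCU. Of 1679 mature miRNA names in the RefSeq table, 10 have this 7-base seed. The 4 that are not members are miR-195b, miR-6342, miR-6353 and miR-6419. Another 1, miR-503-5p, shares only bases 2 to 7. Whether these 5 have a feature in the table was not analysed here, since the files pair no accession with their names.

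The family comes from 4 places in the genome. Mir15a lies at chr14:61632027-61632110 and Mir16-1 at chr14:61631880-61631972, 54 bases apart within the span of the long noncoding RNA gene Dleu2. Mir15b lies at chr3:69009772-69009835 and Mir16-2 at chr3:69009902-69009996, 66 bases apart within the span of Smc4, which encodes a condensin subunit. Both Mir16-1 and Mir16-2 give the same mature miR-16-5p, so its signal cannot be divided between the 2 loci. Mir497 lies at chr11:70234717-70234800 and Mir195a at chr11:70235042-70235135, 241 bases apart. Mir322 lies at chrX:53054255-53054349 within the span of the long noncoding RNA gene C430049B03Rik, 200 bases from Mir503. The tables used here give gene spans only, so exons and introns were not assigned.

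The members differed among themselves. The pair from the Mir497/Mir195a locus was more than 2-fold higher on the Hnf4aΔH array, miR-15b-5p and miR-322-5p were higher by less than 2-fold, and miR-15a-5p and miR-16-5p were nearly level. Of the 6 members, 5 had a higher intensity on the Hnf4aΔH array, against 45.0% of the 258 features measured on both. At 2-fold on the log2(intensity + 1) scale, 2 members were higher, against 6.59% of the 258, and 0 were lower, against 5.43%. Those shares are 17 higher and 14 lower features, and the balance turned to 9 higher and 20 lower with median centring, to 10 and 15 with loess centring, to 2 and 7 with a pseudocount of 16 and to 19 and 24 with none. At 1.5-fold on the same scale, 2 members were higher, against 15.1% of the 258, and 0 were lower, against 14.7%. By the plain ratio of intensities, miR-322-5p also passed 1.5-fold, so that 3 members were higher, against 19.0%, and 0 were lower, against 20.2%. The members' median log2 difference was 0.47 (Hnf4aΔH minus Hnf4af/f, on the scale with the pseudocount of 1), and that of all 258 was -0.06. Since the members were picked with these values known, the shares are given as background and nothing is read from them.

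**Figure D1:**
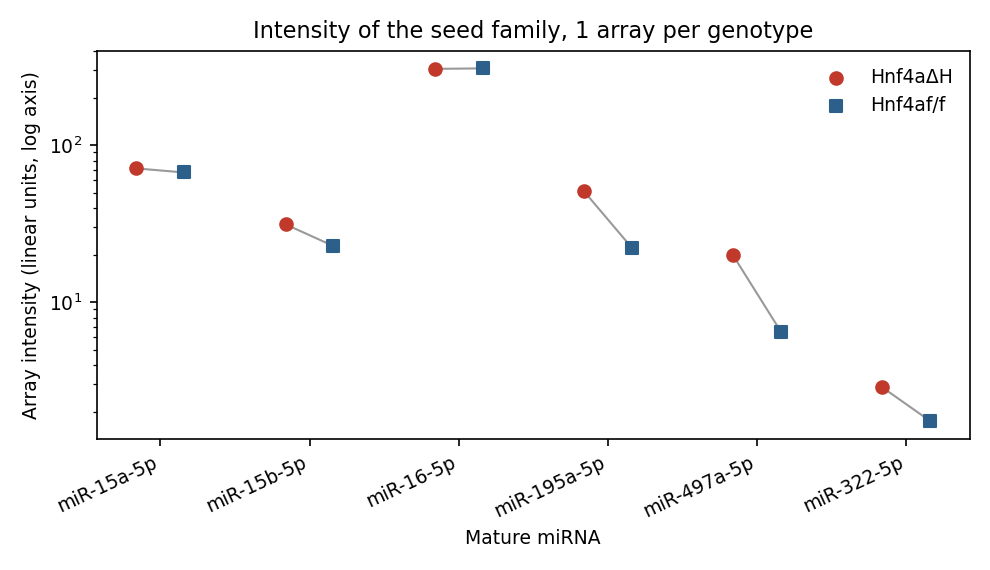
Intensity of each mature miRNA on the Hnf4aΔH array (circle) and the Hnf4af/f array (square), on a log axis, with 1 array per genotype and therefore no error bars. The lines of miR-195a-5p and miR-497a-5p are the steepest, and that of miR-16-5p is level at 306.9 and 309.1.

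miR-497a-5p had an intensity of 19.9 on the Hnf4aΔH array and 6.50 on the Hnf4af/f array. The Hnf4aΔH value was 3.06 times the Hnf4af/f value, a log2 difference of 1.48, and only 2 of the 258 features had a higher difference. Its rank, counted from the brightest feature of an array, was 79 among the 340 features with a value in Hnf4aΔH and 120 among the 299 in Hnf4af/f. miR-497a-5p lay in the second brightest quartile of the 258 features by mean level. There its difference was the second highest of 64, and that quartile held 10 features at least 2-fold higher and had a median of 0.30. The difference stood at 0.67, below 2-fold, when a pseudocount of 16 replaced that of 1.

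miR-195a-5p, the neighbour of miR-497a-5p on chromosome 11, had an intensity of 50.9 on the Hnf4aΔH array and 22.3 on the Hnf4af/f array. The ratio was 2.28 and the log2 difference 1.16, the ninth highest of the 258. It ranked 54 on the Hnf4aΔH array and 73 on the Hnf4af/f array. miR-195a-5p lay in the brightest quartile, where 3 of 65 features were at least 2-fold higher, with a quartile median of 0.04. It was one of these, with the third highest difference of the quartile. The 2-fold mark was not reached with loess centring, which gave 0.97, or with a pseudocount of 16, which gave 0.80, and with median centring it was 1.003, just past the mark.

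The hairpins of these members are shown because their locus alone gave differences past 2-fold, with the measured 5p arm in capitals, as RefSeq gives them on the plus strand of GRCm38.p6.
Mir497: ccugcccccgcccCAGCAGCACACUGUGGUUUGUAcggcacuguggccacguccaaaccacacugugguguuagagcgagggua
Mir195a: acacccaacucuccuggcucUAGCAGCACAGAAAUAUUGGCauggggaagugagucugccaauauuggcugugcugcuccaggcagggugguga
The arm is bases 14 to 35 of the 84-base Mir497 hairpin and bases 21 to 41 of the 94-base Mir195a hairpin. The Mir497 hairpin lies wholly inside Mir497b (chr11:70234692-70234816), a miRNA gene on the opposite strand. No other gene span of the annotation contains either hairpin. The flanking protein-coding genes are Bcl6b (chr11:70224127-70229798), which encodes a transcriptional repressor, and 0610010K14Rik (chr11:70235204-70237923).

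miR-15b-5p had an intensity of 31.4 on the Hnf4aΔH array and 22.8 on the Hnf4af/f array. Hnf4aΔH stood at 1.37 times Hnf4af/f and the log2 difference was 0.44. Of the shared features, 79.1% had a smaller difference. Its rank was 64 in Hnf4aΔH and 72 in Hnf4af/f. In its quartile, the same as that of miR-497a-5p, miR-15b-5p stood 0.14 above the median difference, in place 26 of 64.

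miR-15a-5p, made from the locus in Dleu2, had an intensity of 71.3 in Hnf4aΔH and 67.1 in Hnf4af/f. The ratio was 1.06 and the log2 difference 0.09. This small difference changed sign to -0.07 when the arrays were centred on their medians and to -0.03 with loess centring. Its ranks were 46 in Hnf4aΔH and 48 in Hnf4af/f.

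miR-16-5p, which both miR-15/16 loci produce, gave the brightest signal of the family, with 306.9 in Hnf4aΔH and 309.1 in Hnf4af/f. It ranked 19 in Hnf4aΔH and 21 in Hnf4af/f, and held 1.08% and 1.07% of the total intensity in the same order. The ratio was 0.993 and the log2 difference -0.01. The sign of so small a difference turned with the processing, to 0.01 with 75th-percentile centring and to 0.10 with quantile normalization. Brightness follows the probe as well as the amount of miRNA, so the order of the members on an array is not an order of abundance.

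miR-322-5p, from the X chromosome, was dim on both arrays, with 2.87 in Hnf4aΔH and 1.75 in Hnf4af/f. The ratio was 1.64. The log2 difference was 0.49 with the pseudocount of 1, 0.71 with none and 0.09 with one of 16. The Hnf4aΔH value was 2.81 times the lowest value of its array and the Hnf4af/f value 1.21 times the lowest of its own, and 37 of the 299 features with a value in Hnf4af/f were dimmer. It ranked 181 in Hnf4aΔH and 262 in Hnf4af/f. In the dimmest quartile, where the median difference was -0.23 and 0 of 65 features were at least 2-fold higher, miR-322-5p had the fifth highest difference.

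**Figure D2:**
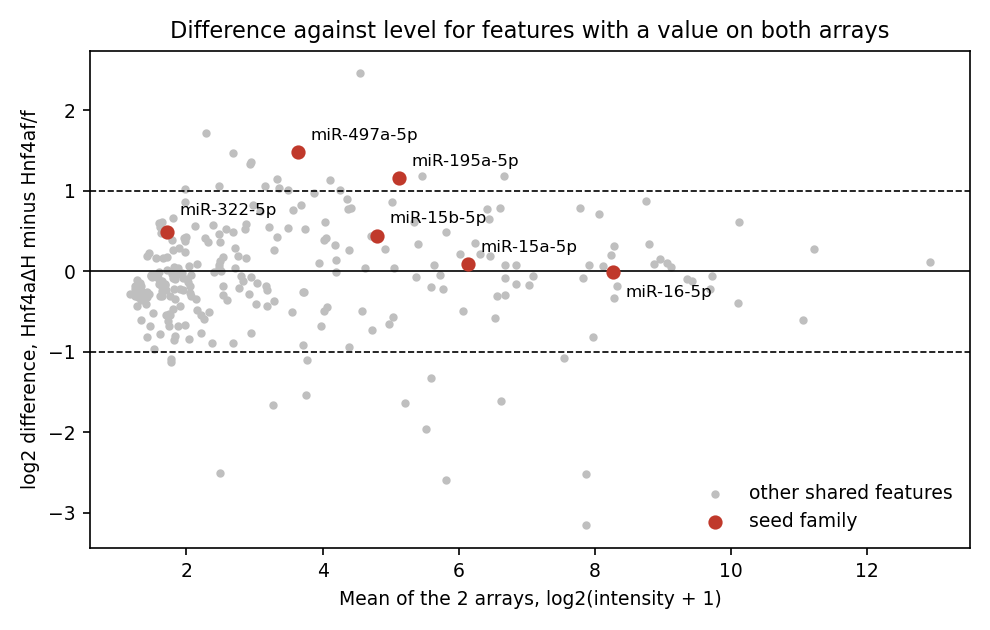
Log2 difference (Hnf4aΔH minus Hnf4af/f) against the mean log2(intensity + 1) of the arrays for the 258 features measured on both, with the family in red and dashed lines at 2-fold. miR-497a-5p at 1.48 and miR-195a-5p at 1.16 lie above the upper line, and the other members lie between -0.01 and 0.49.

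All 6 members stood closer to the brightest feature on the Hnf4aΔH array when only the 258 shared features were ranked, against 52.7% of those features. The gain was 2 places for miR-15a-5p and for miR-16-5p, 8 for miR-15b-5p, 19 for miR-195a-5p, 41 for miR-497a-5p and 67 for miR-322-5p. miR-16-5p gained its places with an intensity no higher on the Hnf4aΔH array, at 306.9 against 309.1. A gain in places is therefore not by itself a gain in intensity, and the count does not show a rise of the whole family. For all but miR-322-5p the places were the same over all features with a value on each array. Ranks do not depend on how an array is scaled as a whole, but a place covers a smaller step in intensity among dim features than among bright ones.

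Set against miR-16-5p, the member with the lowest difference, the others can be compared without regard to a shift common to all features of an array. With the lowest member as the reference, every excess as deposited is above 0 by construction. The difference of miR-497a-5p exceeded that of miR-16-5p by 1.49, a factor of 2.80. That of miR-195a-5p exceeded it by 1.17, a factor of 2.24. The excess was 0.45 for miR-15b-5p, 0.50 for miR-322-5p and 0.09 for miR-15a-5p. Over the 4 scalings and 2 other pseudocounts, the excess of miR-497a-5p ran from 0.68 to 1.62 and that of miR-195a-5p from 0.81 to 1.20, the lowest value of each with the pseudocount of 16.

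Members from one locus were compared with members from different loci over the 15 pairs. The 3 pairs that share a locus had gaps between their log2 differences of 0.09 (miR-15a-5p and miR-16-5p), 0.32 (miR-195a-5p and miR-497a-5p) and 0.45 (miR-15b-5p and miR-16-5p). The gaps of the other 12 pairs ran from 0.05 to 1.49, and 9 of them were above 0.45. Apart from miR-16-5p and miR-322-5p at 0.50, each of these 9 set miR-195a-5p or miR-497a-5p against a member of another locus. The count therefore restates the high differences of that pair. Pairs from different loci without either of them had gaps of 0.05, 0.36, 0.41 and 0.50, much like the pairs that share a locus. The pairs share members, so they are not independent, and no test was made of them.

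Closeness in sequence was set beside the same gaps. miR-16-5p and miR-195a-5p are the most alike outside the seed. Over the 21 positions they share, counted from 1 at the 5′ end, they differ at 2, which are G10A and U11G from miR-16-5p to miR-195a-5p. Their log2 differences were nevertheless 1.17 apart. miR-195a-5p and miR-497a-5p, which share a locus, differ at 9 of 21 positions, and their log2 differences were 0.32 apart. miR-15a-5p and miR-15b-5p differ at 4 of 22 positions, A12C, G20A, U21C and G22A, and their differences were 0.36 apart. No probe sequence is given in the sources used here, and how far a probe for one member also bound another was not tested.

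**Figure D3:**
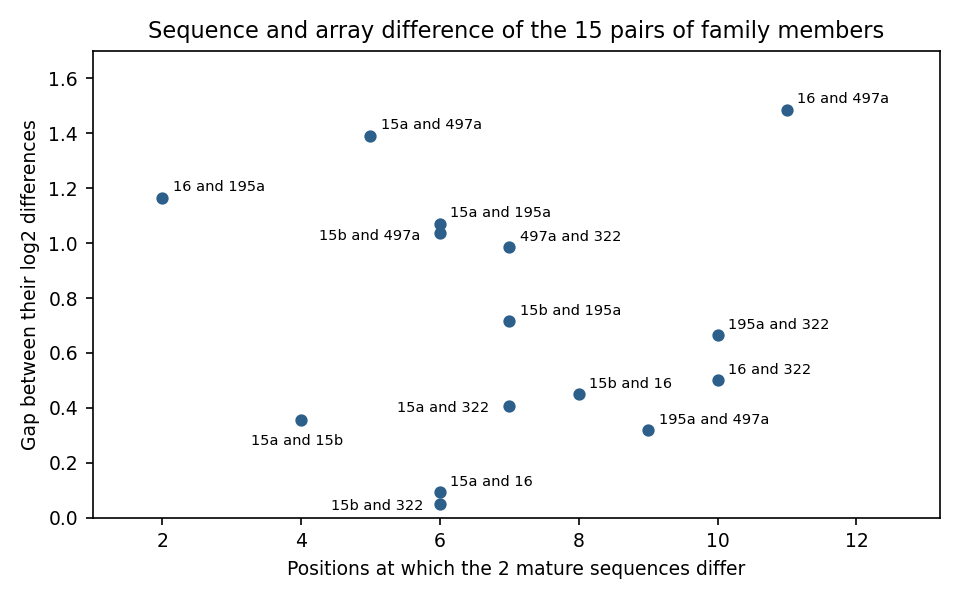
Number of positions at which the mature sequences of a pair differ (x axis) against the gap between their log2 differences (y axis), 1 point for each of the 15 pairs, labelled without "miR" and "5p". miR-16-5p and miR-195a-5p, with 2 differing positions, lie at a gap of 1.17, and miR-195a-5p and miR-497a-5p, with 9, lie at 0.32.

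Base composition varied little. G and C made up 50.0% of miR-497a-5p, the highest share of the family, 45.5% of miR-16-5p, 42.9% of miR-195a-5p and 40.9% of each of the other 3. The members with the highest share, miR-497a-5p and miR-16-5p, had the highest and the lowest difference of the family.

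Features with a pattern like that of each member were sought by distance on the plane of the log2 levels of the 2 arrays. The nearest features of miR-15b-5p, miR-322-5p, miR-16-5p and miR-15a-5p lay at distances of 0.06, 0.11, 0.14 and 0.19. Those of miR-195a-5p and miR-497a-5p lay farther off, at 0.25 and 0.40, and had log2 differences of 0.86 and 1.01. The next nearest features of these members had log2 differences of 1.18 and 0.82. Few features had differences as high as those of miR-195a-5p and miR-497a-5p, so the larger distances are not read as a separate trait. Nearness on this plane makes the differences alike by construction. With 2 arrays this likeness is one of 2 values only, and the features are left unnamed because the files do not pair their accessions with names.

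Liver RNA holds RNA of several cell types, and a higher share of cells that make a miRNA cannot be told apart here from more of it per cell. Marker miRNAs of leukocytes, endothelium, stellate cells and red cells could not be looked up for the same want of names, so the part of cell composition in the differences was not tested.

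The Mir497/Mir195a pair had the 2 highest differences of the family under each processing. miR-497a-5p was at or above 1.24 and miR-195a-5p at or above 0.97 under every setting other than the pseudocount of 16, under which miR-195a-5p at 0.80 stood above miR-497a-5p at 0.67. miR-15b-5p ran from 0.24 to 0.46 and miR-322-5p from 0.09 to 0.71 over the 7 settings. Both stayed above 0 under each centring and under quantile normalization. The remaining settings could not turn a sign. Another pseudocount adds the same constant on both arrays, and the common lowest value left the members' values unchanged.

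**Figure D4:**
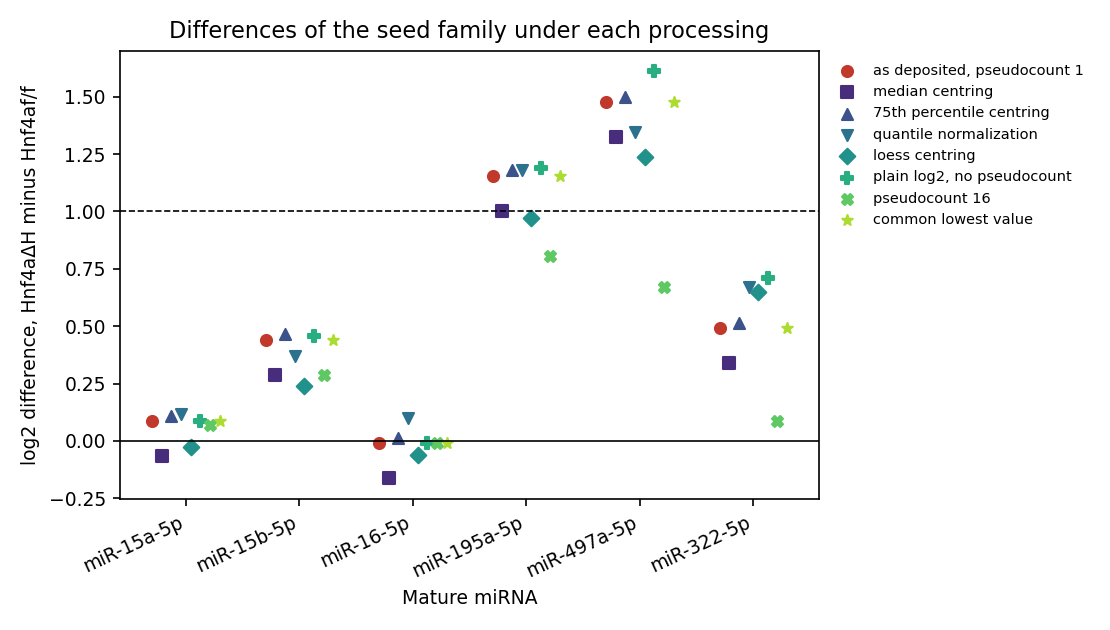
Log2 difference (Hnf4aΔH minus Hnf4af/f, y axis) of each mature miRNA as deposited with a pseudocount of 1 (red circle) and under 7 other settings (see legend), with a dashed line at 2-fold. miR-195a-5p lies around the line, between 0.80 and 1.19, and miR-15a-5p and miR-16-5p lie on both sides of 0.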

How the data were processed

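Liver total RNA was labelled with Hy5 using a miRCURY LNA array labelling kit, per the labels' protocols. The authors deposited processed intensity values on a linear scale, with null where none is given. The sources used here do not state array design, probes, background correction or normalization. Differences are Hnf4aΔH minus Hnf4af/f on the log2(intensity + 1) scale, which understates folds of dim features. The median log2 level of the 258 shared features was 0.15 higher on the Hnf4aΔH array, and values relative to this shift are those given as median centring. The 75th percentile, by contrast, shifted by -0.02, and the median of the features' own differences was -0.06. The sign of a shift between the arrays therefore depended on the measure. Values at null were not replaced. With 1 array per group no p-value or interval was computed, and precision is limited by the number of arrays. The members and lists were chosen with earlier results of these data known. The rule for naming took the 6 members, the other arms of their hairpins, the miR-322 cluster, other miRNAs of the seed, and the 2 nearest features of each member. Since no table pairs accessions with names, only the members are named, from the rule that selected them, and the other lists and the cell type markers were not applied. All 6 names matched the RefSeq table. The alternatives were centring on the median or the 75th percentile, quantile normalization, loess centring (span 0.4), pseudocounts of 0 and 16, a 1.5-fold threshold and, added after seeing the data, a common lowest value, the 1.5-fold threshold on plain ratios and differences relative to miR-16-5p. The code was tested on simulated data with known changes well past 2-fold. These were planted only in features brighter on the Hnf4af/f array than miR-497a-5p and miR-322-5p. Their recovery was required only for the values as deposited, so changes in dim features were not covered. The tools were statsmodels 0.14.6, numpy 2.4.6, pandas 2.3.3 and matplotlib 3.10.9 under Python 3.11.15.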

Additional observations from a re-analysis of the deposited data

How the results depend on the processing

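No paired analysis was possible because only 1 array stands for each genotype, which also leaves no replicate to omit. The common lowest value lay below every intensity of the members, so under it their values repeat those as deposited by construction. Another pseudocount could move a value across 2-fold but could not turn its direction, since both arrays get the same constant. Of 42 recomputed member values, those under the common lowest value included, 35 kept their direction and their side of 2-fold. The other 7 were miR-15a-5p with median centring (-0.0676) and loess centring (-0.0275), miR-16-5p with 75th-percentile centring (0.0135) and quantile normalization (0.10), miR-195a-5p with loess centring (0.97) and a pseudocount of 16 (0.80), and miR-497a-5p with a pseudocount of 16 (0.67). The number of members at least 2-fold higher in Hnf4aΔH was accordingly 1 with loess centring and 0 with a pseudocount of 16, a setting that shrinks all differences by construction, and 2 under the other settings. The number at least 2-fold lower was 0 under all of them. The members' median difference ran from 0.19 with a pseudocount of 16 to 0.58 with none. Over all 258 features, the number at least 2-fold higher was 17 as deposited, 9 after median and 10 after loess centring, and 2 at a pseudocount of 16. The number at least 2-fold lower was 14 as deposited, 20 after median and 15 after loess centring, 7 at a pseudocount of 16 and 24 at none. Among the shared features alone, the rank of miR-322-5p was 174 in Hnf4aΔH and 241 in Hnf4af/f. The lists of other miRNAs were not run, since the files pair no names with accessions.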
